A study of Glycine max with 32 samples.

Results

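Genes of fatty acid desaturation in soybean were followed in leaf RNA: 4 FAD2 genes, 3 FAD3 genes and 3 SACPD genes, 10 of 52875 genes in the count table. They were taken from a list of identifiers, drawn up with earlier results of these data known. Their rows were FAD2-1A (Glyma.10G278000), FAD2-1B (Glyma.20G111000), the pair called FAD2-2 on chromosome 19 (Glyma.19G147400) and on chromosome 3 (Glyma.03G144500), FAD3A (Glyma.14G194300), FAD3B (Glyma.02G227200), FAD3C (Glyma.18G062000), SACPD-A (Glyma.07G207200), SACPD-B (Glyma.02G138100) and SACPD-C (Glyma.14G121400). The reference table of RefSeq gene symbols placed the symbol of 9 of the 10 on the chromosome that the identifier names, and it was not found for SACPD-A.

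The 3 families act one after another on the same acyl chain. SACPD enzymes, the stearoyl-acyl carrier protein desaturases of the plastid, place the first double bond in stearate and make oleate. FAD2 enzymes of the endoplasmic reticulum place the next one, turning oleate into linoleate, and FAD3 enzymes place the last, turning linoleate into alpha-linolenate. In soybean, FAD2-1A and FAD2-1B are known for the oil of the developing seed, the FAD2-2 genes are known as the forms used throughout the plant, and SACPD-C is known from seeds and nodules.

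The 32 libraries were of leaves of WT, non-transgenic soybean of cultivar Maverick, and of VPZ-34A, 1 transformation event in the same cultivar that overexpresses the Arabidopsis genes for VDE, PsbS and ZEP, proteins of photoprotective quenching. Both lines grew side by side in 8 free-air CO2 rings, rings 1, 2, 4 and 7 at a[CO2] of 410 µmol mol−1 and rings 3, 5, 6 and 8 at e[CO2] of 600 µmol mol−1. The field was laid out in 4 blocks of 1 elevated and 1 ambient ring, but the sample labels name the ring and not its block, so blocks were no term in any test. Disks of the youngest fully expanded leaf, pooled from several plants of a plot, were taken 31 days after sowing (V4–V5) and 86 days after sowing (R5–R6, called R6 in the sample labels), which gave 8 groups of 4 libraries. The comparisons ask whether the desaturase transcripts differed with growth stage, line and CO2.

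Library totals ran from 16091207 to 63132399 counts with a median of 20437366. Values are CPM, a gene's counts scaled to a common library size after adjustment with TMM (trimmed mean of M-values). They are not divided by transcript length, so levels are compared between samples of 1 gene and not between genes. The 4 leaf markers, genes of Rubisco small subunit and Rubisco activase, summed to 40717 to 66673 CPM at V4–V5 and 10861 to 38509 CPM at R5–R6. Of 6 seed storage markers 5 were in the table, and 4 of these stood at 0 in every library while the highest count of any was 3. In whole leaves, fewer cells of a type and less RNA per cell cannot be told apart. Each stage was 1 sampling date, so stage and date cannot be told apart either.

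Growth stage gave the largest differences among these genes. Of the 8 desaturase genes with enough counts to test, 8 were lower at R5–R6 than at V4–V5 at an adjusted p under 0.05, and 0 were higher. Over all 35639 genes tested, 37.7% were lower and 37.5% higher at the same threshold. The median log2 fold change (log2FC) of the 8 genes was −2.16 and that of all genes tested 0.0087. Most genes measured in these leaves thus differed with stage. All adjusted p-values come from the quasi-likelihood test of edgeR and were adjusted by Benjamini-Hochberg across the genes that passed the filter. FAD2-1A passed it through its V4–V5 counts alone, being too low to test at R5–R6, so the direction of its call was set in advance. In a fit of genes with at least 10 counts in every library, which leaves out FAD2-1A and FAD3C, 6 of 6 were lower. In that fit 9492 of all 26838 genes tested were lower.

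FAD3C, one of the enzymes that make alpha-linolenate, fell furthest. It ran from 17.2 CPM to 45.9 CPM at V4–V5, with a median of 28.9 CPM over 16 libraries. At R5–R6 it ran from 0.0456 CPM to 0.614 CPM with a median of 0.326 CPM, which rested on 1 to 15 counts per library. The highest late library thus lay far under the lowest early one, and all 8 rings were lower late. The log2FC was −6.60 (SE 0.20, adjusted p = 1.1e-20), a 96.9-fold difference, and 0.831% of genes tested had a lower log2FC.

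FAD3A and FAD3B, which carry out the same step, fell less. FAD3A went from 12.5 to 24.3 CPM (median 15.7 CPM) at V4–V5 to 0.236 to 6.21 CPM (median 2.33 CPM) at R5–R6, with a log2FC of −2.83 (SE 0.27, adjusted p = 1.4e-10). FAD3B went from 8.40 to 22.9 CPM (median 17.0 CPM) to 1.17 to 6.002 CPM (median 4.26 CPM), with a log2FC of −2.06 (SE 0.17, adjusted p = 1.3e-11). For both genes the stages did not overlap in any library. FAD3C was the one of the 3 with at most 15 counts in each late library, close to the detection limit, where 3 counts are 0.186 CPM in the shallowest library.

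Both FAD2-2 genes, the forms used throughout the plant, fell as well. FAD2-2 on chromosome 19 ran from 619 to 957 CPM (median 801 CPM) at V4–V5 and from 61.1 to 341 CPM (median 248 CPM) at R5–R6. FAD2-2 on chromosome 3 ran from 129 to 194 CPM (median 158 CPM) and then from 8.21 to 61.2 CPM (median 34.3 CPM). Neither gene had a late library that reached its lowest early one. The log2FC was −1.87 (SE 0.18, adjusted p = 1.2e-10) on chromosome 19 and −2.25 (SE 0.16, adjusted p = 5.0e-13) on chromosome 3. Counts of both were not whole in 30 of 32 libraries, because reads that fit several genes were shared as fractions, so that the split between the copies is less certain than their sum.

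The seed forms of FAD2 had few counts in these leaves. FAD2-1A was present at V4–V5 in 16 of 16 libraries at 0.761 to 8.40 CPM (median 2.45 CPM, 13 to 185.5 counts). At R5–R6 it had counts in 11 of 16 libraries, from 0 to 0.411 CPM (median 0.0509 CPM, at most 9 counts). The stages did not overlap, and the log2FC was −5.20 (SE 0.45, adjusted p = 2.2e-11), or 36.7-fold. That size rests on few late counts, and without ring 2 the log2FC was −5.94. FAD2-1B, its near copy, had 1.5 counts in all at V4–V5 and 3 counts in all at R5–R6. Each of them came from ring 8: 1 count in VPZ-34A and 0.5 in WT early, and 3 in WT late. Ring 8 was also where FAD2-1A was highest at V4–V5, with 8.40 CPM for WT and 7.25 CPM for VPZ-34A. FAD2-1B was not tested across genes, and with counts in 1 ring its exact permutation tests over rings could not show a difference. A count of 0 allows up to 3 counts, so its absence cannot be stated below 0.186 CPM.

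The SACPD genes, at the entry of the pathway, changed least. SACPD-A ran from 61.7 to 114 CPM (median 78.5 CPM) at V4–V5 and from 29.8 to 59.1 CPM (median 37.3 CPM) at R5–R6. Its stages did not overlap, with a log2FC of −1.06 (SE 0.096, adjusted p = 5.9e-11). SACPD-B ran from 94.2 to 134 CPM (median 112 CPM) and then from 78.9 to 148 CPM (median 89.0 CPM). Its stages overlapped, 14 of 16 pairs of the same ring and line were lower late, and the log2FC was −0.28 (SE 0.068, adjusted p = 0.0005). Late WT of ring 8, at 148 CPM, was the highest SACPD-B value of all 32 libraries. SACPD-C had 0 to 3 counts per library early (21 in all) and 0 to 12 late (46 in all). It was not tested across genes, and its exact permutation test over rings gave p = 0.398 (two-sided, smallest possible 0.00781). The WT library of ring 5 held 12 of the 46 late counts.

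Ordered by their means, the 8 groups fell into an early and a late set for all 8 tested genes, and only for SACPD-B did the library ranges of the 2 sets overlap. FAD2-1A is among these genes, although it passed the filter through its early counts alone. The share of all genes tested whose stages did not overlap was not counted, so the separation cannot be called particular to desaturases. FAD2-2 on chromosome 19 had early means of 826 ± 121 CPM (SD, n = 4) in WT at e[CO2], 820 ± 134 CPM in VPZ-34A at e[CO2], 819 ± 25.8 CPM in VPZ-34A at a[CO2] and 733 ± 80.6 CPM in WT at a[CO2]. Its late means were 268 ± 99.8 CPM, 255 ± 52.9 CPM, 162 ± 88.4 CPM and 204 ± 99.2 CPM in the same groups. FAD2-2 on chromosome 3 kept the same early order, from 166 ± 26.5 CPM in WT at e[CO2] to 156 ± 22.3 CPM in WT at a[CO2], and ran late from 45.04 ± 15.6 CPM in WT at e[CO2] to 23.6 ± 7.78 CPM in VPZ-34A at a[CO2]. For both FAD2-2 genes, groups next to each other in the order overlapped, apart from the step between the lowest early and the highest late group.

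FAD3 showed the same 2 sets. FAD3A had early means between 15.3 ± 2.87 CPM in WT at e[CO2] and 17.2 ± 4.74 CPM in VPZ-34A at a[CO2], and late means between 1.48 ± 1.298 CPM in VPZ-34A at a[CO2] and 3.01 ± 2.19 CPM in WT at e[CO2]. FAD3B lay between 15.4 ± 5.39 and 17.5 ± 3.75 CPM early, and between 3.11 ± 1.56 and 4.76 ± 0.770 CPM late. FAD3C lay between 26.3 ± 6.11 and 32.8 ± 8.84 CPM early, and between 0.259 ± 0.118 and 0.349 ± 0.158 CPM late. The late standard deviations of FAD3A ran from 1.17 to 2.19 CPM, and each of its late groups overlapped its neighbour in the order.

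FAD2-1A had its highest early mean in WT at e[CO2], 3.997 ± 3.06 CPM, and its lowest in WT at a[CO2], 1.61 ± 0.882 CPM, with overlapping ranges. SACPD-A ran early from 86.8 ± 19.2 CPM in VPZ-34A at e[CO2] to 74.1 ± 9.18 CPM in WT at a[CO2]. Late it ran from 45.9 ± 9.12 CPM in WT at e[CO2] to 33.7 ± 3.93 CPM in VPZ-34A at e[CO2], so that VPZ-34A at e[CO2] was first early and last late. SACPD-B had the same first and last group, with 116 ± 14.1 CPM and 82.7 ± 4.89 CPM, and its late WT mean at e[CO2] was 105 ± 29.9 CPM. For SACPD-B each group overlapped its neighbour in the order, also across the stages.

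**Figure D1:**
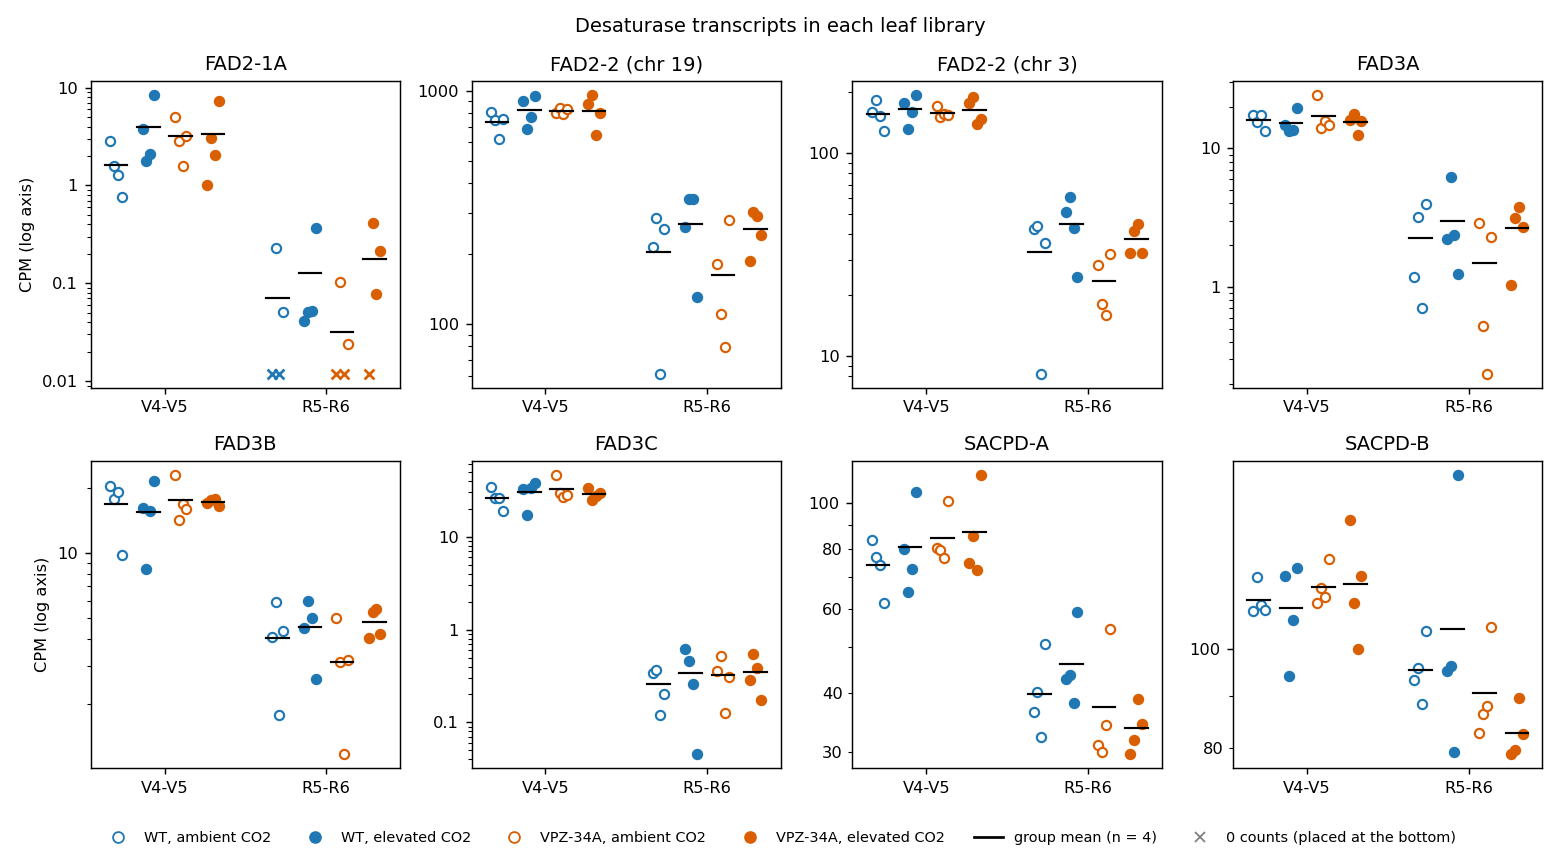
CPM on a log axis of the 8 tested genes in each of 32 leaf libraries, by stage, line (blue WT, orange VPZ-34A) and CO2 (open ambient, filled elevated). Bars are means of 4 rings and crosses are libraries with 0 counts. The late libraries lie under all early ones for each gene except SACPD-B. The share of all genes tested with such a separation was not counted.

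The fall with stage was seen in every line and CO2 level for the tested FAD2 and FAD3 genes and for SACPD-A. FAD2-1A, counted below, passed the filter through its V4–V5 counts alone. In WT, 7 of 8 genes were lower at R5–R6 at a[CO2] (25.9% of all genes tested were) and 7 of 8 at e[CO2] (26%). In VPZ-34A, 8 of 8 were lower at a[CO2] (28.1%) and 8 of 8 at e[CO2] (27.5%). SACPD-B was the gene that differed in call. Its log2FC was −0.23 (SE 0.14, adjusted p = 0.173) in WT at a[CO2] and −0.07 (SE 0.14, adjusted p = 0.699) in WT at e[CO2]. In VPZ-34A it was −0.35 (SE 0.14, adjusted p = 0.0318) at a[CO2] and −0.48 (SE 0.14, adjusted p = 0.0038) at e[CO2]. The call in VPZ-34A at a[CO2] remained in 3 of 8 fits that left out 1 ring, with adjusted p from 0.0104 to 0.132. Those 3 each left out an elevated ring, which removes no library of this comparison. Each fit without an ambient ring lost the call, with adjusted p from 0.0508 to 0.132. The fit without elevated ring 5 lost it too (adjusted p = 0.051). The call at e[CO2] remained in 7 of 8, with adjusted p from 0.00226 to 0.055, and was lost without elevated ring 3. There the fits without an ambient ring removed no library of the comparison.

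The difference of the stage effect between lines was itself tested, and 0 of 8 genes passed (0% of all genes tested passed with edgeR), and limma-voom and DESeq2 called 0 of the 8 too. At an unadjusted p under 0.05 there was 1 of 8 genes with edgeR (5.42% of all genes tested), 1 with limma-voom (4.54%) and 2 with DESeq2 (5.89%). The gene was SACPD-A, with a log2FC difference of −0.41 (SE 0.19, adjusted p = 0.909). SACPD-B, the second gene with DESeq2, followed at −0.27 (SE 0.14, adjusted p = 0.909). All 8 differences were negative with edgeR, a larger fall in VPZ-34A, and 7 of the 8 were smaller than 2 times their standard error. Between CO2 levels 0 of 8 genes passed (0% of all genes tested with edgeR), nor did any with the other tools. At an unadjusted p under 0.05 there were 0 with edgeR (7.31% of all genes tested), 0 with DESeq2 (7.8%) and 2 with limma-voom (7.02%), which were FAD3A and FAD3B. The 6 tested FAD2 and FAD3 genes had positive differences, a smaller fall at e[CO2], from 0.41 (SE 0.42) for FAD3C to 1.26 (SE 0.96) for FAD2-1A, all within 2 standard errors.

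**Figure D2:**
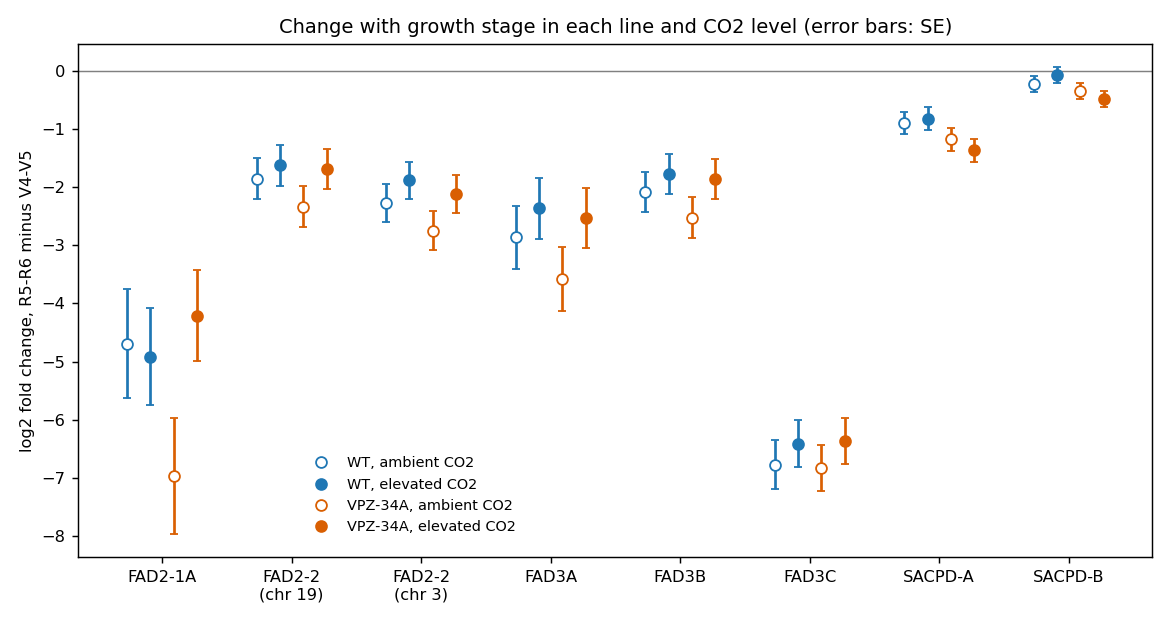
Log2FC from V4–V5 to R5–R6 of the 8 tested genes in each line and CO2 level, with standard errors from the fit of all 32 libraries. FAD3C lies between −6.83 and −6.37 in the 4 groups, SACPD-A between −1.36 and −0.82, and SACPD-B between −0.48 and −0.07.

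Within pairs of like genes the balance moved with stage, in 16 of 16 pairs of ring and line for SACPD and FAD3. For FAD2-2 it moved less evenly. SACPD-A held 36.0% to 49.2% (median 40.97%) of the summed SACPD-A and SACPD-B counts at V4–V5 and 25.8% to 34.2% (median 29.0%) at R5–R6. The share was lower late in 16 of 16 pairs of ring and line, and the ranges did not overlap. FAD3A held 41.2% to 61.3% (median 48.2%) of the FAD3A and FAD3B counts early and 14.3% to 50.8% (median 34.1%) late, lower in 16 of 16 pairs but with overlapping ranges. FAD2-2 on chromosome 19 held 80.2% to 85.4% (median 83.5%) of its pair early and 83.3% to 89.7% (median 86.5%) late, and was lower in 3 of 16 pairs. These shares describe counts with no test, and they rest on how reads common to both copies were divided. Counts were not whole in 14 of 32 libraries for SACPD-A, 15 for SACPD-B and 6 each for FAD3A and FAD3B.

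**Figure D3:**
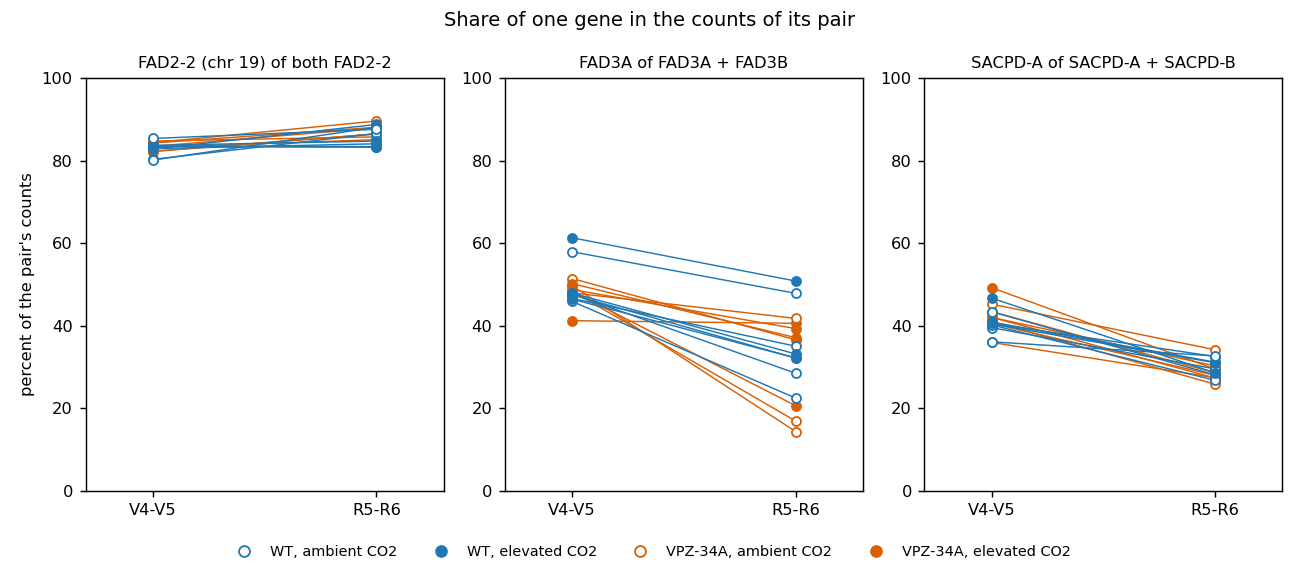
Percent of a pair's counts held by FAD2-2 on chromosome 19, FAD3A and SACPD-A, with a line for each ring and line of plants from V4–V5 to R5–R6 (blue WT, orange VPZ-34A, open ambient, filled elevated CO2). The SACPD-A and FAD3A shares are lower late in 16 of 16 pairs.

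The line effect asks whether the VPZ transgenes went with a change in desaturase transcripts. At V4–V5, 0 of 8 genes differed between VPZ-34A and WT (0.0653% of all genes tested did), and 0 had an unadjusted p under 0.05 (3.42% of all genes tested). The log2FC (VPZ-34A minus WT) ran from −0.0058 (SE 0.10) for FAD2-2 on chromosome 3 to 0.34 (SE 0.40) for FAD2-1A. At R5–R6, 0 of 7 differed (0.0904%), and 0 had an unadjusted p under 0.05 (7.51%), with FAD2-1A too low to be tested. Here 6 of 7 were negative. SACPD-A had the lowest p: it ran from 32.3 to 59.1 CPM in WT and from 29.8 to 54.6 CPM in VPZ-34A, with a log2FC of −0.27 (SE 0.14, adjusted p = 0.679). VPZ-34A was above WT in 3 of 8 rings for this gene, and the lines overlapped. With the ring as a block it was the 1 gene of the 7 at an unadjusted p under 0.05 (13.8% of all genes tested), at an adjusted p of 0.275. FAD3C was the exception with 0.15 (SE 0.43), above WT in 7 of 8 rings. Its late values rest on 1 to 15 counts per library. An exact permutation test of line over rings gave p = 0.273 for FAD3C (two-sided, smallest possible 0.00781). Limma-voom and DESeq2 called 0 of these genes at either stage. Values that miss the threshold do not show that the lines were alike: a standard error of 0.50 for FAD3A at R5–R6 leaves room for sizeable differences.

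The CO2 effect gave 0 of 8 genes at V4–V5 (0.199% of all genes tested passed) and 0 of 7 at R5–R6 (0%), and limma-voom and DESeq2 called 0 of them too. At an unadjusted p under 0.05 there were 0 of 8 at V4–V5 with each tool (10.8% of all genes tested with edgeR). At R5–R6 there were 0 of 7 with edgeR (13.5% of all genes tested), 1 with DESeq2 (14.5%), FAD2-2 on chromosome 3, and 3 with limma-voom (13.5%), the same gene with FAD3A and FAD3B. At V4–V5 the log2FC (elevated minus ambient) of 7 of the 8 genes lay between −0.0954 for FAD3A and 0.0936 for FAD2-2 on chromosome 19, and the other was FAD2-1A at 0.70 (SE 0.41, adjusted p = 0.571). The early FAD2-1A values in WT were 2.84, 1.58, 1.28 and 0.761 CPM at a[CO2] (rings 1, 2, 4 and 7) and 3.74, 1.77, 2.07 and 8.40 CPM at e[CO2] (rings 3, 5, 6 and 8). In VPZ-34A they were 5.03, 2.88, 1.60 and 3.21 CPM, then 1.02, 3.02, 2.05 and 7.25 CPM. Both lines had their highest value in ring 8, and the CO2 levels overlapped in each line. Within WT alone the edgeR log2FC of FAD2-1A was 1.33 (SE 0.59, unadjusted p = 0.0364, adjusted p = 0.847). In that comparison 5.83% of all genes tested had an unadjusted p under 0.05. Within VPZ-34A the log2FC of FAD2-1A was 0.077 (SE 0.56, adjusted p = 0.993). The interaction of line and CO2 gave 0 of 8 genes at V4–V5 (0%) and 0 of 7 at R5–R6 (0%), and 0 by limma-voom and DESeq2. At an unadjusted p under 0.05 there were 0 at V4–V5 (1.63% of all genes tested) and 0 at R5–R6 (2.41%), and with the ring as a block 1 at V4–V5, FAD2-1A (2.53%).

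**Figure D4:**
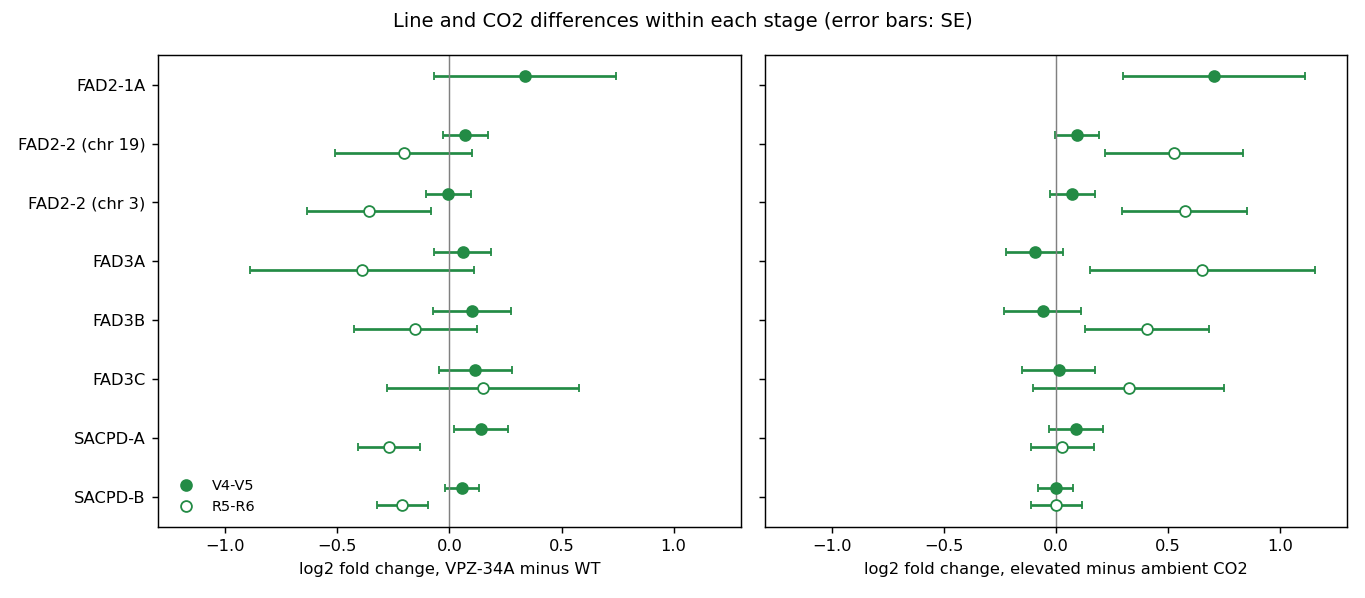
Log2FC of VPZ-34A against WT (left) and of elevated against ambient CO2 (right) for the 8 tested genes at V4–V5 (filled) and 7 at R5–R6 (open), with standard errors. At R5–R6 the CO2 values of FAD2-2 and FAD3 lie between 0.32 and 0.65 and those of SACPD-A and SACPD-B near 0.

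At R5–R6 the FAD2-2 and FAD3 genes were higher on average at e[CO2], short of the threshold. FAD2-2 on chromosome 3 had the lowest p. Its WT values were 42.4, 43.6, 8.21 and 36.0 CPM at a[CO2] (rings 1, 2, 4 and 7) and 51.5, 61.2, 42.9 and 24.5 CPM at e[CO2] (rings 3, 5, 6 and 8). In VPZ-34A they were 28.2, 18.2, 15.9 and 32.1 CPM, then 32.5, 41.3, 45.1 and 32.3 CPM. All 4 elevated VPZ-34A values were above the 4 ambient ones, while in WT the levels overlapped. The log2FC over both lines was 0.57 (SE 0.28, p = 0.0562, adjusted p = 0.389), and an exact permutation test of 4 against 4 rings gave p = 0.143 (two-sided, smallest possible 0.0286). The other 4 were FAD3A at 0.65 (SE 0.50), FAD2-2 on chromosome 19 at 0.52 (SE 0.31), FAD3B at 0.41 (SE 0.28) and FAD3C at 0.32 (SE 0.43). SACPD-A at 0.028 (SE 0.14) and SACPD-B at 0.0012 (SE 0.12) lay near 0.

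Ring 4 at a[CO2] took part in these averages. It was the lowest of the 4 ambient rings in both lines for 5 genes, the FAD2-2 pair and the 3 FAD3 genes. For how many of all genes tested ring 4 was lowest in both lines was not counted. FAD2-2 on chromosome 19 stood at 61.1 CPM in WT of ring 4 against 213 to 283 CPM in the other 3 rings, and at 79.4 CPM in VPZ-34A against 110 to 279 CPM. FAD3A stood at 0.706 CPM in WT against 1.18 to 3.97 CPM, and at 0.236 CPM in VPZ-34A against 0.519 to 2.87 CPM. FAD3B stood at 1.77 CPM in WT against 4.07 to 5.91 CPM, and at 1.17 CPM in VPZ-34A against 3.12 to 4.98 CPM. SACPD-B was much closer to the other rings, at 88.4 CPM in WT against 93.4 to 104 CPM, while VPZ-34A of ring 4, at 88.0 CPM, was inside the 82.7 to 105 CPM of the others. Without ring 4 the CO2 log2FC fell to 0.34 (adjusted p = 0.571) for FAD2-2 on chromosome 3, to 0.30 for FAD3A, to 0.14 for FAD3B and to 0.0086 for FAD3C. Without ring 7, also at a[CO2], it moved the other way, to 0.70 (adjusted p = 0.233) for FAD2-2 on chromosome 3, to 0.79 (adjusted p = 0.188) for FAD2-2 on chromosome 19, to 1.04 for FAD3A and to 0.22 for SACPD-A. None of the 7 genes was called in either fit, where 0 of all genes tested were called without ring 4 and 518 without ring 7.

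The ring 4 libraries were also the deepest of their groups at R5–R6. Totals were 43341836 counts in WT, against 17242184 to 20168599 in the other 3 ambient rings, and 63132399 counts in VPZ-34A, against 17639354 to 39938182. The leaf markers of ring 4 summed to 19471 CPM in WT. In VPZ-34A they summed to 21836 CPM, and both lay inside the range of the other ambient rings. The part of depth in the low FAD2-2 and FAD3 values was not tested.

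**Figure D5:**
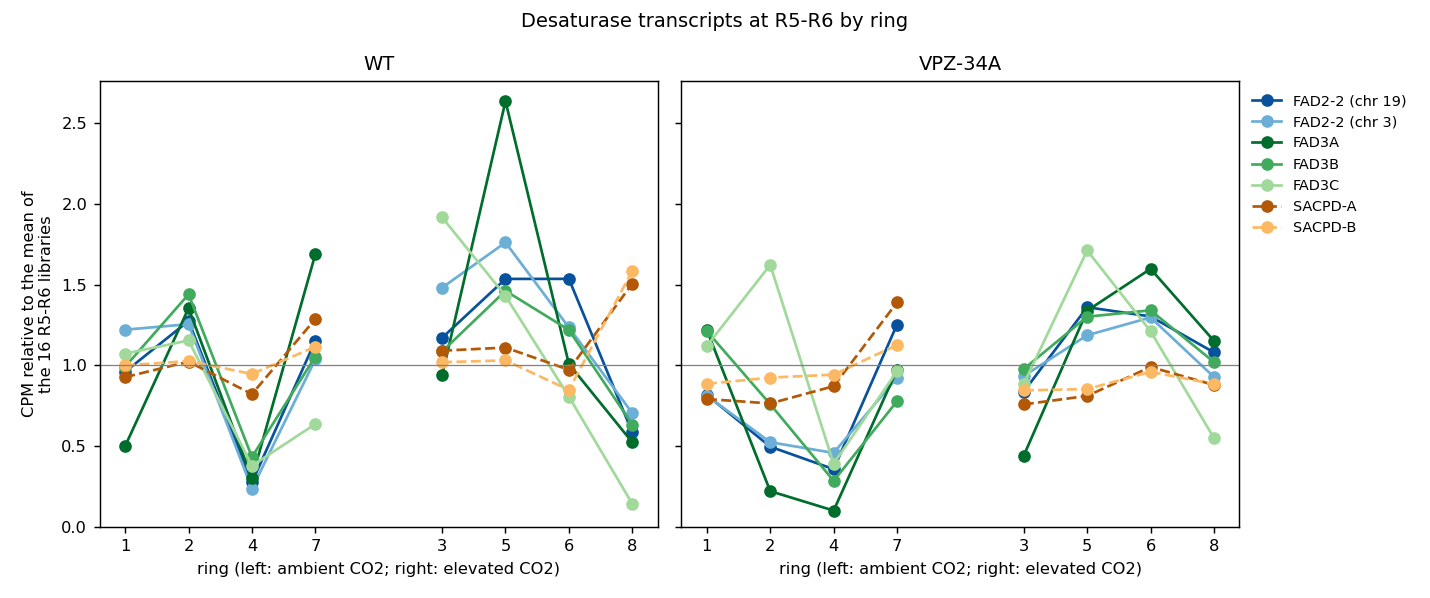
CPM at R5–R6 of 7 genes in each ring, divided by the gene's mean over the 16 R5–R6 libraries, in WT (left) and VPZ-34A (right). Ring 4 is the low point of the ambient rings for the 5 FAD2-2 and FAD3 genes in both lines, while the dashed SACPD lines stay closer to 1.

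How the genes varied together beyond the groups was described by the correlation of log2 CPM after subtracting each group's mean, over 32 libraries that share rings and differ in depth. The FAD2-2 pair gave r = 0.92, a pair that also shares reads. The other 9 pairs among the 5 FAD2-2 and FAD3 genes ran from 0.48, for FAD3A with FAD3C, to 0.81, for FAD2-2 on chromosome 19 with FAD3A. SACPD-A and SACPD-B gave 0.70 with each other. Between the 2 SACPD genes and the 5 FAD2-2 and FAD3 genes the values ran from −0.35, for FAD3C with SACPD-B, to 0.33, for FAD3A with SACPD-A. FAD2-1A was nearest to SACPD-A, at 0.50. Its late values rest on at most 9 counts per library, with counts in 11 of 16 libraries, so counting error weighs on its r values.

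Over the 32 libraries, with the stage difference left in, the genes outside the families whose log2 CPM was most like a member's were found by Pearson's r. Glyma.15G195201 gave r = 0.99 with FAD2-2 on chromosome 3 and 0.98 with that on chromosome 19, and its counts were not whole in 29 of 32 libraries. Glyma.10G104700 gave 0.98 with both, and its counts were whole in each library. For FAD3C they were Glyma.02G150700 and Glyma.12G084600, both 0.99, for FAD3A Glyma.12G097700 (0.96) and Glyma.08G345100 (0.96), and for FAD3B Glyma.20G188000 (0.97) and Glyma.06G131300 (0.96). SACPD-A was nearest to Glyma.03G185800 (0.98) and Glyma.02G116100 (0.97). SACPD-B had lower r, with Glyma.08G291600 (0.88) and Glyma.17G153200 (0.86), as did FAD2-1A with Glyma.18G222200 (0.94) and Glyma.13G199800 (0.94). With each group's mean subtracted, the same matches gave 0.78 and 0.83 for SACPD-B and 0.68 each for FAD2-1A. Those of FAD3C then gave 0.84 and 0.69, and those of the remaining genes ran from 0.80 to 0.95. The order of r thus depends in part on the size of each gene's stage difference.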

How the data were processed

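Leaf RNA of 32 samples was sequenced as poly(A) libraries. Per the submitters' processing notes the authors filtered the reads with Trimmomatic 0.39, aligned them with STAR 2.7.10a (reference Wm82.a4.v1 plus the 3 transgenes) and ran featureCounts of Subread 2.0.4 per gene, sharing multiply aligned reads as fractions. The deposited values are therefore estimated counts, not normalised, and 32.6% of those above 0 are not whole. Samples were grouped by line, CO2, stage and ring from the sample labels.

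Counts were rounded, filtered with filterByExpr, scaled with TMM and tested with edgeR 4.0.16 in R 4.3.3. Stage was tested in 1 model of 32 libraries with a mean for each of 8 groups, and line, CO2 and their interaction within each stage (16 libraries). FAD2-1B and SACPD-C did not pass the filter, nor did FAD2-1A at R5–R6. Standard errors were derived from the size of log2FC and the test statistic. The 50 exact permutation tests used log2(CPM + 0.01) of ring means, swapping stages or lines within 8 rings or regrouping 4 against 4 rings. Replicates within a group are libraries of separate rings, and CO2 was tested without the pairing of rings in blocks, which was not used here. The main fits took all libraries as independent. The CO2 effect over both lines thus counts WT and VPZ-34A of 1 ring as separate, although CO2 was set by ring. WT and VPZ-34A of 1 ring grew in the same plot, so the ring numbers pair them: their deviations from the group means correlated with a median over 8 rings of 0.163 early (V4–V5) and 0.23 late. No pair of libraries within a group was a copy of the other (48 pairs, 10.9 to 183 chi-square units per gene).

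The genes named are the 10 members and, for each tested member, the 2 other genes most like it. The members, the lists and the tests were chosen with earlier results of these data known. Lists of other pathway genes, transcript lengths and sequences were not used here, because the reference table held symbols alone. The fits were repeated with DESeq2 1.42.0, limma-voom (limma 3.58.1), size factors by relative log expression (RLE), unrounded counts, without a filter, with a minimum of 10 counts in each library, with the ring as a replicate block, with pairs summed, and with each ring left out. Floors of 3 counts cover counting error only.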

Additional observations from a re-analysis of the deposited data

Results flagged for a closer look

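Of 64 sets of 4 libraries (8 genes in 8 groups), 5 held a library that stood apart from the other 3 by more than Dixon's critical value for 4 samples. Chance gives about 1 in 20. FAD2-1A in WT at e[CO2] and R5–R6 stood at 0.365 CPM in ring 8 against 0.0409 to 0.0516 CPM in the other rings, on 8 counts against 1 count each. FAD3C in VPZ-34A at a[CO2] and V4–V5 stood at 45.9 CPM in ring 1 against 27.0 to 29.6 CPM. SACPD-A in VPZ-34A at a[CO2] was high in ring 7 at both stages, at 101 CPM against 76.8 to 80.5 CPM at V4–V5 and at 54.6 CPM against at most 34.2 CPM at R5–R6. SACPD-B in WT at a[CO2] and V4–V5 stood at 118 CPM in ring 2 against 109 to 110 CPM.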

How the results depend on the processing

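The direction and the call of the stage effect held for each gene under each alternative that tested it (15 for FAD2-1A and FAD3C, 16 for the other 6 genes). With at least 10 counts in every library 6 of 6 genes were called, and FAD2-1A and FAD3C could not be tested. With the 4 pairs summed, each sum was called, as was FAD3C. Summed, SACPD-A and SACPD-B gave −0.56. Leaving out 1 ring moved the log2FC least for SACPD-B (−0.32 to −0.24) and most for FAD2-1A (−5.94 to −4.90), and FAD3C ran from −6.75 to −6.41. With the ring as a replicate block 8 of 8 genes were called for stage and 0 for line, CO2 or any interaction, so the pairing changed no call of a member. SACPD-B within VPZ-34A at a[CO2] lost its call with no filter (adjusted p = 0.0519), and the SACPD-A and SACPD-B sum in WT missed the threshold at e[CO2] (adjusted p = 0.0564) and passed it at a[CO2] (adjusted p = 0.0118). Line, CO2 and interaction called 0 members under every alternative. Over all genes, CO2 at V4–V5 called 67 genes with edgeR, 473 with DESeq2, 77 with limma-voom, 24 with limma-voom and ring as a random replicate block, and 15 to 78 with 1 ring left out, and at R5–R6 0 with edgeR, 619 with DESeq2, 187 without ring 3 and 518 without ring 7. Line at R5–R6 called 30 genes with edgeR, 121 with DESeq2 and 9 with at least 10 counts in every library, and at V4–V5 22, 42 and 6. At most 15 counts per library limit FAD2-1A, FAD3C and SACPD-C at R5–R6. Levels per transcript length could not be given.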

Other observations

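In WT at e[CO2] and V4–V5, the library of ring 5 was the lowest of the 4 for 8 of 8 tested desaturase genes and that of ring 8 the highest for 8 of 8. In VPZ-34A of the same rings, ring 5 was lowest for 1 of 8 and ring 8 highest for 2 of 8. The share of all genes tested with these rings as extremes was not counted, so the pattern cannot be called particular to desaturases. Totals were 16870301 counts in WT of ring 5 and 24318039 in WT of ring 8. SACPD-B in these 4 WT libraries ran from 94.2 to 120 CPM, FAD3B from 8.40 to 21.5 CPM and FAD3C from 17.2 to 37.6 CPM.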
